A study of Mus musculus with 10 samples.

Results

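Among the RUNX1-bound regions found in every batch 1 library of TGFβ-treated and vehicle-treated mouse cholangiocytes, 2140 had a fold enrichment with TGFβ that was at least 2 times the fold with vehicle. They are called doubled regions here. They were taken from 64286 regions made by merging all peaks that overlapped by at least 1 bp. Regions of 5000 bp or more, and a segment of chromosome 5 starting from 3 to 20 Mb, were left out, which kept 59034. Of these, 10940 were called in all 4 batch 1 lists (shared regions), and the 2140 doubled regions are 19.6% of them. The other 8800 shared regions lay under the threshold. Of 420 regions that were called in these 4 lists but left out by width or position, 118 had a ratio of at least 2. The members were chosen by their batch 1 fold enrichment, the mean of TGFβ replicates 1 and 2 over that of vehicle replicates 1 and 2, so their batch 1 values are a description and carry no test. Batch 2 was not used in the choice.

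Chromatin immunoprecipitation and sequencing (ChIP-seq) recovers the DNA that a protein sits on and reads it out as peaks. RUNX1 libraries came from mouse large biliary epithelial (MLE) cells, near confluence, kept overnight with TGFβ at 10 ng/mL or with vehicle. Chromatin was cut by an enzyme and RUNX1 was pulled down with a polyclonal antibody. Each treatment had 2 libraries in batch 1 (replicates 1 and 2) and 1 in batch 2 (replicate 3), and the labels do not say whether the pairs of same-treatment libraries came from separate cultures. The labels name no genetic change in any group, and peak lists do not measure expression, so cell type markers were not checked. The study's title asks how RUNX1 mediates the response of cholangiocytes to TGFβ.

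RUNX1 is a DNA-binding transcription factor that works as a dimer with CBFB, which does not bind DNA itself but steadies RUNX1 on it. TGFβ signals through receptor kinases to SMAD2 and SMAD3, which join SMAD4 in the nucleus and often act beside other factors, RUNX proteins among them. Cholangiocytes line the bile ducts, where TGFβ is known for its part in duct injury and fibrosis.

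In batch 1 the lists held 14733 and 21602 peaks with vehicle and 33601 and 42050 with TGFβ (replicates 1 and 2). In batch 2 they held 16265 with vehicle and 18790 with TGFβ. The lowest caller background, which scales with depth, ran from 10.4 to 11.8 overlapping fragments, so the 6 libraries differed little in it. Read totals are unknown, which leaves the precision of single folds unstated. The fold enrichment used throughout is the authors' value for each peak, the fragment pileup at its summit over the local background, and the highest in a region stands for that region. Over shared regions the median fold was 3.41 and 4.04 in vehicle replicates 1 and 2, and 4.96 and 6.66 in TGFβ replicates 1 and 2. In batch 2 it was lower, at 2.97 with vehicle and 3.38 with TGFβ, among the shared regions each list called.

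The doubled regions were ordinary RUNX1 sites with vehicle and strong ones with TGFβ. Their median fold with vehicle was 3.34 and 3.88 in replicates 1 and 2, against 3.43 and 4.11 in the other shared regions. With TGFβ it was 8.43 and 10.8, against 4.47 and 6.002. Ranked among the same 10940 regions, the doubled regions had a median percentile of 48.1 and 44.9 in the vehicle libraries and of 82.5 and 81.2 in the TGFβ libraries. Ranks do not depend on the scale of a list, so the doubled regions stood in the middle of the shared set with vehicle and near its top with TGFβ, in the contrast that the rule used. Of the 1094 shared regions with the highest mean over the 4 libraries, 500 were doubled (45.7%), and of the 1094 with the lowest, 3 were. The TGFβ folds enter this mean, so the rule itself moves doubled regions toward its top. By vehicle fold alone the share was flatter, from 16.6% to 25.5% across groups of 1094 regions ordered by it.

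**Figure D1:**
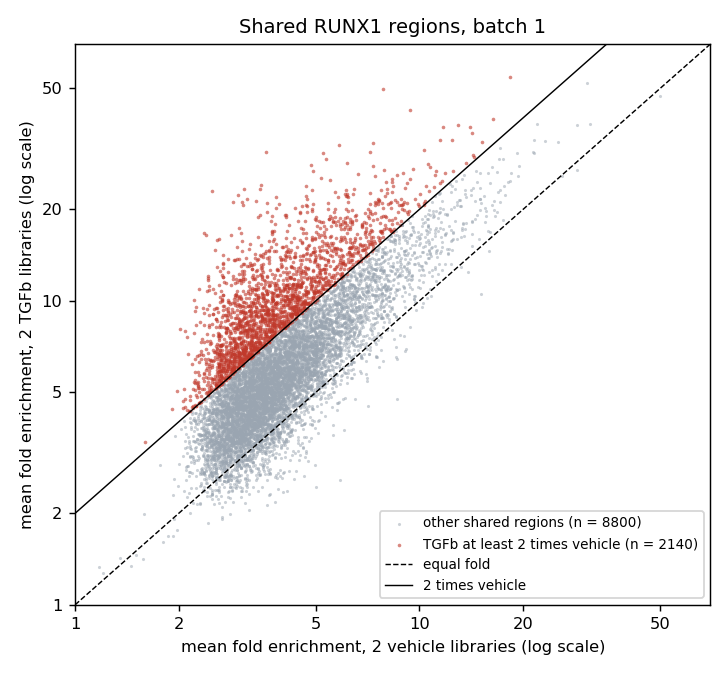
Each point is 1 of the 10940 shared regions, with the mean fold enrichment of the 2 vehicle libraries on the x axis and of the 2 TGFβ libraries on the y axis (both log scale). The 2140 doubled regions (red) lie on or above the solid line at 2 times the vehicle fold, and the bulk of the other 8800 (grey) also lies above the dashed line of equal fold (median ratio 1.39).

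The batch 1 ratio of the doubled regions had a median of 2.45 and reached 9.16. It was from 2 to under 2.5 in 1145 regions, from 2.5 to under 3 in 525, from 3 to under 4 in 333 and at least 4 in 137. Both TGFβ folds exceeded both vehicle folds in 2139 of the 2140, a count that the rule nearly fixes, beside 68.5% of all shared regions. Pairs were formed by like title wording (replicate 1 with 1, replicate 2 with 2). The labels do not say that a pair shares a culture or day. Of the 2140, the ratio was at least 2 in both pairs for 1568 regions, in pair 1 for 1708 and in pair 2 for 2000. Of the other shared regions, 248 reached it in pair 1, 665 in pair 2 and 0 in both. The rule fixes that 0, since a region at 2 or more in both pairs is doubled. The pair counts use the folds that chose the members, so they are no separate measure of replicate agreement.

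The whole shared set was higher with TGFβ, and the number of doubled regions depends on how that is treated. The median ratio over all 10940 shared regions was 1.497. With each list divided by its own median over shared regions, 407 regions had a ratio of at least 2. The count was 3369 without TGFβ replicate 1, where regions had to be called in 3 lists rather than 4.

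At the threshold the change was gradual. The 3 doubled regions nearest to it had ratios of 2.0003 to 2.0009 and lay on chromosomes 16, 11 and 7. The 3 nearest shared regions under it, on chromosomes 11, 2 and 1, had ratios of 1.9996 to 1.9999. In the GRCm39 coordinates of the files, the first region inside, at chr16:33413101-33416380, had folds of 3.22 and 5.90 with vehicle and 7.54 and 10.7 with TGFβ in batch 1. The first one outside, at chr11:94827206-94829014, had 2.72 and 3.13 with vehicle and 5.14 and 6.56 with TGFβ.

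The fold and p-value of a peak together give back its pileup and the background the caller used. Both are solved from the batch 1 values that chose the members and are given as a description. In pair 1 the TGFβ pileup of the doubled regions was a median of 2.45 times that of vehicle, and in pair 2 it was 2.31 times. In the other shared regions the pileup ratios were 1.38 and 1.36. In most regions the background was at or near the lowest value of its list, so its median is set by the list. It was within 5% of that lowest value in 66.4% and 65.5% of doubled regions with vehicle (replicates 1 and 2) and in 82.4% and 81.1% with TGFβ. In the other shared regions the shares were 69.4% and 69.0% with vehicle and 68.3% and 66.6% with TGFβ. In doubled regions the background was thus above the lowest value of its list more often with vehicle than with TGFβ. In raw fragments, the median pileup of the doubled regions was 41 and 51 with vehicle and 106 and 126 with TGFβ. Peaks in a doubled region covered a median of 683.5 and 998.5 bp with vehicle and 1435 and 1842.5 bp with TGFβ. Coverage was also larger with TGFβ in the other shared regions, at 623 and 942 bp with vehicle and 1046 and 1458 bp with TGFβ.

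The 2 TGFβ libraries of batch 1 placed the summit at nearly one position. Their strongest summits lay a median of 17 bp apart in the doubled regions and 41 bp in the other shared regions, and within 100 bp in 93.7% and 73.5%. The rule also chose taller TGFβ peaks, with a median pileup of 106 and 126 against 58 and 72 in the others. Summit distances were not compared at like TGFβ fold. Summits of the 2 vehicle libraries lay a median of 57 bp apart in the doubled and 53 bp in the other regions. Summits of TGFβ and vehicle were a median of 81 bp apart in pair 1 and 68 bp in pair 2, near the 78 and 64 bp of the other shared regions. In 1907 of the 2140 doubled regions (89.1%) the TGFβ summit fell inside a vehicle peak in both pairs, close to the 86.5% of all shared regions. In 33 it fell outside the vehicle peaks of both pairs.

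The region with the highest ratio was chr3:130806850-130809031. Its fold was 2.83 and 2.18 in vehicle replicates 1 and 2 and 21.3 and 24.5 in TGFβ replicates 1 and 2, a ratio of 9.16. In batch 2 it was called with TGFβ at a fold of 2.58 and not with vehicle. The batch 2 fold with TGFβ was thus at the level of the batch 1 vehicle libraries. A chromosome 18 region came next, with 2.74 and 4.44 with vehicle, 28.8 and 32.8 with TGFβ, and no call in batch 2. The third, at chr19:44213489-44215777, had folds of 3.01, 3.18 and 2.499 in vehicle replicates 1, 2 and 3, and of 23.2, 23.6 and 4.39 in TGFβ replicates 1, 2 and 3. It was the only one of the 10 highest that both batch 2 lists called, and TGFβ lay above vehicle in both batches, by 7.55 times in batch 1 and 1.76 times in batch 2.

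The fourth region, at chr2:173292822-173295453, had vehicle folds of 2.57 and 3.39 and TGFβ folds of 21.1 and 23.5 in batch 1. The fifth, at chr16:37620737-37623591, had 2.28 and 3.48 with vehicle and 20.2 and 22.2 with TGFβ. Both had a batch 2 peak with TGFβ alone, at 3.13 and 3.19, and in both that peak did not cover the batch 1 summit. The sixth, at chr6:122665120-122667745, had 2.31 and 2.42 with vehicle and 13.0 and 20.6 with TGFβ, and its batch 2 TGFβ peak, at 3.64, did cover it. Across these 10 regions the ratio ran from 6.86 to 9.16, and was at least 2 in both pairs in each of the 10. In batch 2, 7 were called with TGFβ only, 1 in both lists and 2 in neither. Over all shared regions the like shares were 21.3%, 34.8% and 41.0%. Of the 137 regions with a ratio of at least 4, 46.7% were called with TGFβ only. At the batch 1 summit itself, 4 of the 10 had a TGFβ peak only, 1 had both and 5 had none. Over all shared regions these shares were 18.1%, 22.7% and 57.2%.

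**Figure D2:**
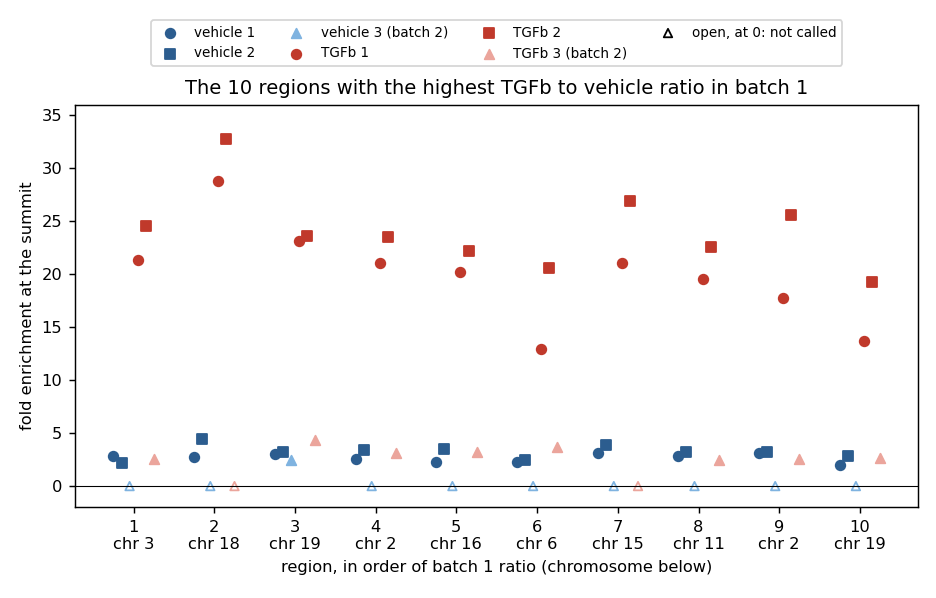
Fold enrichment at the summit (y axis) of the 10 doubled regions with the highest batch 1 ratio (x axis, in order of ratio) in vehicle (blue) and TGFβ (red) libraries, with batch 2 as pale triangles. Open symbols at 0 mark lists that did not call the region. The batch 1 TGFβ points lie between 13.0 and 32.8, and the batch 2 TGFβ points that were called lie between 2.503 and 4.39.

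Of the 10 doubled regions with the highest mean TGFβ fold in batch 1, 9 were called in both batch 2 lists and 1 with TGFβ only. Their mean vehicle folds in batch 1 were 7.82 to 18.3. Among other shared regions, both lists called 80.9% of those with a vehicle fold from 7 to under 10 and 94.4% at 10 or more. The first of the 10, at chr16:29630858-29634133, had folds of 16.5, 19.99 and 9.50 in vehicle replicates 1, 2 and 3, and of 43.7, 65.6 and 18.1 in TGFβ replicates 1, 2 and 3. TGFβ exceeded vehicle by 2.99 times in batch 1 and by 1.91 times in batch 2. The second, at chr15:28079186-28082889, had 6.68 and 8.97 with vehicle and 41.9 and 57.8 with TGFβ in batch 1, and 4.10 with TGFβ alone in batch 2. The third, at chr17:34899204-34901985, had 8.15, 10.6 and 3.35 with vehicle and 39.0, 45.7 and 3.69 with TGFβ. Its gain of 4.51 times in batch 1 stood beside 1.10 times in batch 2. Over the 9 called in both lists the batch 2 ratio ran from 1.01 to 2.08.

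One region was among the 10 highest both for TGFβ fold and for batch 2 ratio. It lay at chr10:79772522-79774104, with folds of 13.0, 19.6 and 5.94 in vehicle replicates 1, 2 and 3, and of 31.2, 48.0 and 12.3 in TGFβ replicates 1, 2 and 3. TGFβ lay above vehicle by 2.42 times in batch 1 and 2.08 times in batch 2. The highest batch 2 ratio was at chr11:118269545-118271648, with 6.83, 7.01 and 2.27 with vehicle and 12.3, 17.2 and 5.77 with TGFβ, a ratio of 2.13 in batch 1 and 2.55 in batch 2. In chr5:134465161-134467945, folds were 6.54, 8.16 and 2.57 with vehicle and 27.9, 38.2 and 5.72 with TGFβ. This was the largest batch 1 ratio, 4.49, among the 10 doubled regions with the highest batch 2 ratios. The others of these 10 lay on chromosomes 2, 8, 10, 11, 13, 14 and 19, with batch 1 ratios of 2.12 to 3.23. A peak of both batch 2 lists covered the batch 1 TGFβ summit in 6 of the 10.

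Batch 2 holds 1 library per treatment, so it gives values and no test. Both of its lists called 432 of the 2140 doubled regions (20.2%) and 38.3% of the other shared regions. Only regions called in both lists have a ratio. Those called with TGFβ alone, 29.8% of doubled and 19.2% of other shared regions, are absent from the ratios below. In the 432 the TGFβ to vehicle ratio had a median of 1.22, with quartiles at 1.076 and 1.39 and a range of 0.686 to 2.55. The 3374 other shared regions called in both lists had a median of 1.23, with quartiles at 1.09 and 1.39. TGFβ exceeded vehicle in 361 of the 432 doubled regions (83.6%), beside 86.3% of all 3806 shared regions called in both lists. A ratio of at least 1.5 was reached by 68 (15.7%), beside 14.3%, and a ratio of at least 2 by 10 (2.31%), beside 0.867%. Apart from the 10 regions of that upper tail, the shares of the doubled regions were near those of all shared regions, among regions called in both lists. Across the 3806 regions, which share the same 6 libraries, the log2 ratios of batch 1 and batch 2 correlated with Pearson's r of 0.0483 and Spearman's rho of 0.0360. The ratios of the 2 pairs of batch 1 correlated with r of 0.766, but over all 10940 shared regions. Their correlation within the 3806 is not given here, so these values come from unlike sets.

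**Figure D3:**
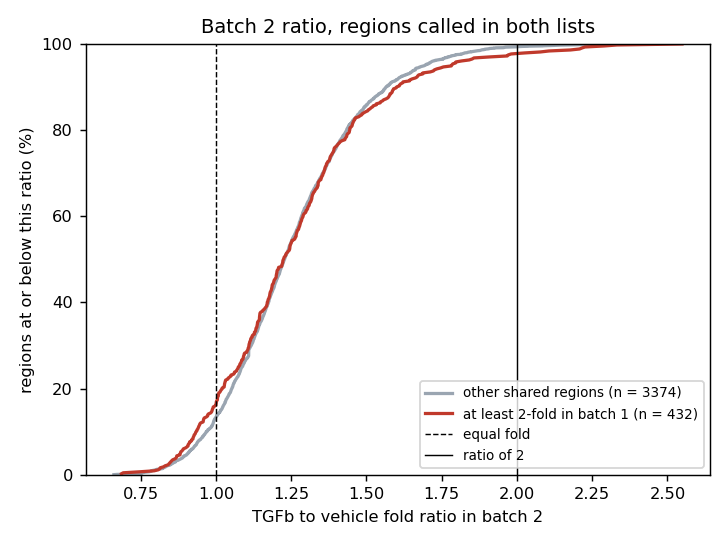
Cumulative share of regions (y axis, %) at or below a given TGFβ to vehicle fold ratio in batch 2 (x axis), for doubled (red, n = 432) and other shared regions (grey, n = 3374) called in both batch 2 lists. Both curves cross the middle near 1.22 and 1.23, and 10 doubled regions lie at or beyond the solid line at 2.

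Calls in batch 2 leaned to TGFβ. Of the 2140 doubled regions, 637 were called in the TGFβ list only (29.8%) and 53 in the vehicle list only (2.48%), beside 21.3% and 2.98% of all shared regions. The remaining 1018 were in neither list. Without vehicle replicate 1 in the choice of members, 1.51% were in the vehicle list only. The share over all shared regions under that choice is not given here. In the other shared regions the counts were 1689 and 273, so TGFβ-only calls were 12.02 times as many as vehicle-only calls in the doubled regions and 6.19 times in the others. Of regions called in either list, 88.9% of doubled and 86.4% of other shared regions had TGFβ above vehicle or a TGFβ call alone. Over all shared regions this share was 86.9%, so by this count the doubled regions were near the rest. The share called with TGFβ only was 12.6% where the batch 1 ratio was under 1, 25.4% from 2 to under 2.5, 39.6% from 3 to under 4 and 46.7% at 4 or more, counting peaks anywhere in the region. Counting peaks over the batch 1 TGFβ summit alone, these shares were 12.01%, 19.9%, 20.1% and 27.7%, and from 1.5 to under 4 they stayed between 18.4% and 20.1%. An uncalled region may lie just under the threshold of its list. The median TGFβ fold of the 637 was 2.83, beside 2.90 in all 2326 shared regions called with TGFβ only. Of the 637, 222 exceeded 3.05, the median vehicle fold of the shared regions called in both lists. Of the 2326, 934 exceeded it, so the doubled regions did not stand above the rest by these values.

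Many batch 2 peaks in the doubled regions were not at the batch 1 site. Of the 1069 doubled regions called in the TGFβ list of batch 2, 450 (42.1%) had no TGFβ peak over the batch 1 TGFβ summit, against 23.9% of the other shared regions called there. With vehicle the shares were 57.3% and 31.5%. The site is a TGFβ summit for both lists, and sites set by vehicle summits were not analysed. Doubled regions were also wider, with a median of 1941.5 bp against 1568.5 bp, and the part of width in these shares was not tested. Counting batch 2 peaks over the batch 1 TGFβ summit alone, 187 doubled regions had a peak in both lists, 432 with TGFβ only (20.2%) and 20 with vehicle only (0.935%). Over all shared regions the last 2 shares were 18.1% and 1.97%. TGFβ-only sites were then 21.6 times as many as vehicle-only sites in the doubled regions and 7.91 times in the others. Because the site comes from TGFβ libraries, these 2 counts are not on equal terms. In chr5:134465161-134467945 the summits of all lists lay within 58 bp, yet the site counted as TGFβ only. At the 187 sites the fold ratio had a median of 1.28 and exceeded 1 in 168 (89.8%), and at the 2301 such sites of the other shared regions the median was 1.246 and 88.7% exceeded 1.

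**Figure D4:**
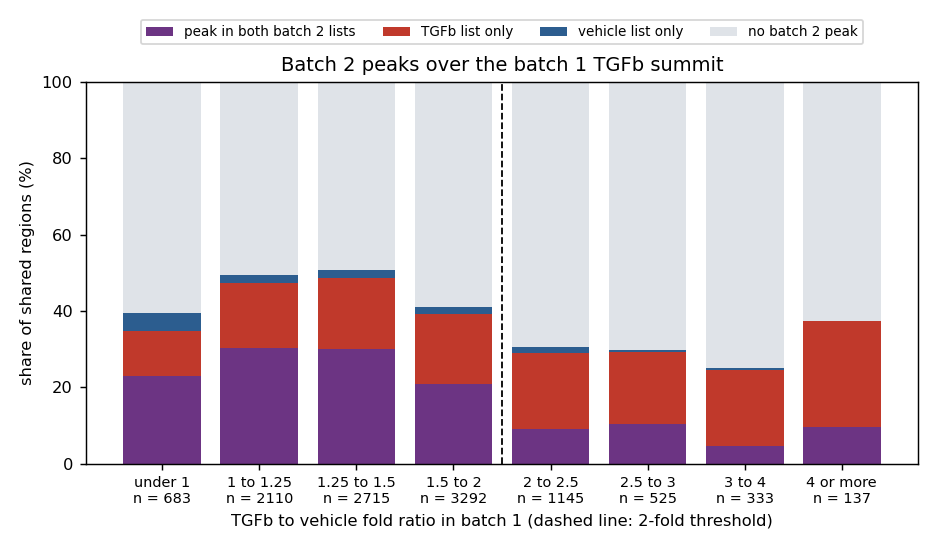
Share of shared regions (y axis, %) with a batch 2 peak over the batch 1 TGFβ summit, in both lists, with TGFβ only, with vehicle only or in neither, by the batch 1 ratio (x axis, n regions under each bar). Right of the dashed line are the doubled regions, where sites with a peak in both lists made up 4.50% to 10.3% of a bar, against 20.9% to 30.3% on the left.

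Doubled and other shared regions were then set side by side at like vehicle strength. No batch 2 peak covered the summit in 1501 of the 2140 doubled regions (70.1%) and in 4753 of the 8800 others (54.0%). Among regions with a mean batch 1 vehicle fold from 5 to under 7, the vehicle list of batch 2 had a peak over the summit in 16.8% of 303 doubled regions and in 54.2% of 1255 others. In its TGFβ list the shares were 49.8% and 73.3%. From 3 to under 4 they were 4.50% and 17.1% with vehicle, and 21.1% and 33.8% with TGFβ. Under 3 the shares with TGFβ were close, 11.5% and 12.7% under 2.5 and 13.1% and 13.4% from 2.5 to under 3, while those with vehicle were 0.769% and 8.11%, and 1.90% and 5.58%. At 10 or more, the 29 doubled regions were covered in 93.1% with vehicle and in 29 of 29 with TGFβ, beside 94.8% and 96.7% of 213 others. From 3 to under 10 the shares of doubled sites with a batch 2 peak over that TGFβ summit were thus lower in both lists. Neither batch 2 list took part in choosing the members. Peaks anywhere in the region gave other values. Under 2.5, 29.2% of doubled regions were called with TGFβ only and 2.31% in both lists, against 9.73% and 11.4% of others. From 5 to under 7 these shares were 30.4% and 40.6%, against 17.0% and 65.7%. With 1 library per treatment these differences carry no test.

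**Figure D5:**
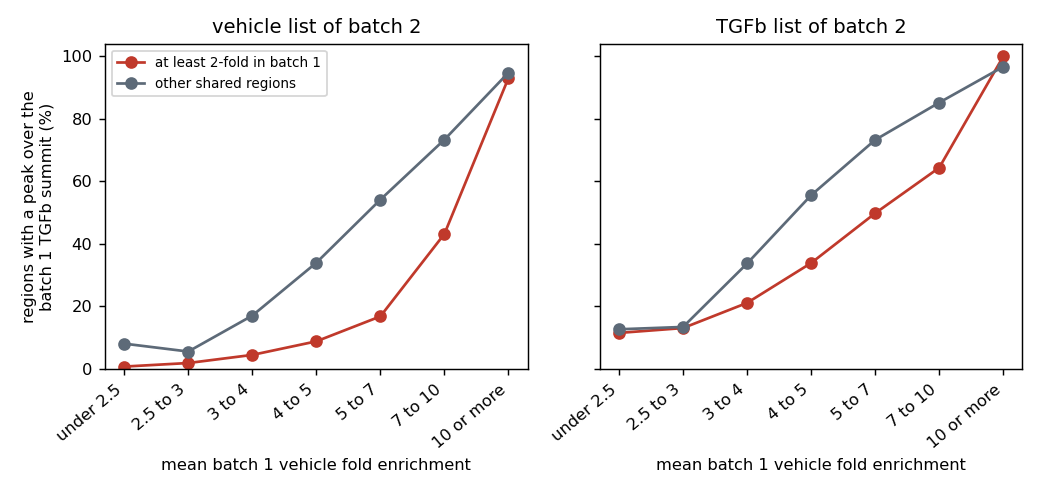
Share of regions with a batch 2 peak over the batch 1 TGFβ summit (y axis, %) by mean batch 1 vehicle fold (x axis), in the vehicle list (left) and the TGFβ list (right), for doubled (red) and other shared regions (grey). The vehicle curves are farthest apart from 5 to 7, at 16.8% and 54.2%, and come to 93.1% and 94.8% at 10 or more.

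Where both batch 2 lists called a region, the pileup was compared as well. With TGFβ it was a median of 1.21 times that of vehicle in the doubled regions and 1.17 times in the others. Ranked among the 3806 regions called in both lists, the doubled regions had a median percentile of 33.4 with vehicle and 37.4 with TGFβ, both under the middle. The batch 1 percentiles, 48.1 and 44.9 with vehicle and 82.5 and 81.2 with TGFβ, rank all 2140 doubled regions among the 10940. The ranked sets differ, and batch 1 ranks within the 3806 are not given here. A change of rank between batches can thus not be read from these values.

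Some doubled regions went the other way in batch 2. The ratio did not exceed 1 in 71 of the 432. The lowest, 0.686, was at chr13:34416722-34420288, where folds were 2.87, 3.75 and 3.05 in vehicle replicates 1, 2 and 3 and 8.11, 9.73 and 2.09 in TGFβ replicates 1, 2 and 3. Its batch 2 peaks lay off the batch 1 summit. In chr19:20368647-20372590 the batch 2 peaks did cover that summit, with vehicle folds of 4.51, 5.44 and 3.07, TGFβ folds of 14.5, 17.4 and 2.12, and a batch 2 ratio of 0.691. Both regions were chosen after their values were seen.

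No gene was assigned to a region, so position is given by chromosome and spacing alone. Doubled regions were spread over 19 autosomes and X. Chromosomes 2, 1 and 11 held the most, with 207, 204 and 202. As a share of the shared regions on a chromosome they ran from 12.1% on chromosome 18 (23 of 190) to 24.5% on chromosome 15 (158 of 644) among the autosomes, with 23.6% on chromosome 13 and 23.1% on chromosome 6. X held 2 of 35. A second doubled region lay within 50 kb of 592 of the 2140 (27.7%), and a doubled region lay within that distance of 20.9% of the other shared regions. Shared regions of any kind lay within 50 kb of 67.1% of doubled and 65.1% of other regions.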

How the data were processed

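Deposited lists of 6 RUNX1 ChIP libraries were used; 4 input libraries were not analysed here. Per the submitters' processing notes, DRAGEN, Trimmomatic, Bowtie2 2.5.2 and MACS2 were used with mm39 (GRCm39); their settings and the control library are not given in the sources used here. The authors made 1 list per library, and each deposited peak carries a score, a fold enrichment (ratio over local background) and its significance as −log10 p-values and q-values. The lowest deposited −log10 q was just above 1 in each. Coordinates are 1-based, in the files' build. The RefSeq table at hand covers GRCm38, so no gene, promoter, motif or sequence was assigned to a region, and the planned promoter and motif shares and gene lists were not analysed here.

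Peaks were merged in Python 3.11.15 with pandas 2.3.3. Pileup and background were solved from fold, as (pileup + 1)/(background + 1), and the Poisson p-value, and a whole pileup matched within 0.001 on the −log10 p scale for 99.98% to 99.99% of the peaks of a list. The code was tested on simulated data. Samples were grouped by the treatment label, and replicate numbers follow deposit order. Batch 1 pairs are libraries whose titles differ only in treatment and library number. No count model or test was fitted: lists hold no read counts, batch 1 chose the members and batch 2 has 1 library per treatment. Named regions were the 10 highest by batch 1 ratio, by batch 2 ratio and by mean TGFβ fold, and 3 on each side of the threshold. Members and lists were chosen with earlier results of these data known. The batch 1 TGFβ summit is that of the TGFβ library with the higher fold. Alternatives were other ratio thresholds, list scaling, pairing, a −log10 q of at least 5, summit windows of 200 bp, the peak of highest −log10 q, and leaving out each batch 1 library. Alternatives with peaks over the batch 1 summit, TGFβ summits inside vehicle peaks, and regions of at most 2000 bp were chosen after seeing the data.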

Additional observations from a re-analysis of the deposited data

How the results depend on the processing

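The median batch 2 ratio of the doubled regions stayed above 1 in all 15 alternatives run. In the main setting it was also above 1 over all shared regions (1.23, with 86.3% above 1), so this is not particular to the doubled regions. Comparison shares for an alternative are given only for batch 2 peaks over the batch 1 summit, above. Against 2140 regions, a batch 2 ratio of 1.22, 83.6% of ratios above 1, 29.8% called with TGFβ only and 2.48% with vehicle only, a batch 1 ratio of at least 1.5 gave 5432 regions and 24.98% with TGFβ only, by its looser threshold. A ratio of at least 3 gave 470 regions, a batch 2 ratio of 1.28, and 41.7% and 1.28% with TGFβ or vehicle only. Scaling each list to its median over shared regions gave 407 regions, a batch 2 ratio of 1.11 (also scaled), 65.4% above 1, and 42.5% and 1.23% with TGFβ or vehicle only. The batch 2 medians used, 2.97 with vehicle and 3.38 with TGFβ, came from unlike sets, the 4132 and 6132 shared regions each list called. Scaled values over all shared regions are not given here, so the 1.11 has no comparison. A −log10 q of at least 5 gave 87.9% above 1, 24.3% with TGFβ only and 1.61% with vehicle only. Summit windows of 200 bp gave 24.3% with TGFβ only. Regions of at most 2000 bp numbered 1119, with 87.6% above 1 and 27.6% with TGFβ only. Batch 2 peaks over the batch 1 TGFβ summit gave a ratio of 1.28, 89.8% above 1, and 20.2% and 0.935% with TGFβ or vehicle only. Beyond the looser or stricter thresholds, the cause was not tested. With the replicate block (batch 1 pairs taken from title wording, which the labels do not tie to a shared culture or day; geometric mean ratio) there were 2112 regions, with a batch 2 ratio of 1.23. Leaving out one batch 1 library gave 1430 to 3369 regions, 26.9% to 31.1% with TGFβ only and 1.51% to 2.42% with vehicle only.

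Read totals are unknown, so what depth limits cannot be stated. Batch 2 has 1 library per treatment and lower folds, no read counts tell how far under the threshold an uncalled region lies, and neighbouring regions are not independent. Leaving out a batch 2 library leaves no ratio. Promoter and motif shares were not run because the gene starts at hand belong to GRCm38. No group held 4 libraries, so none was screened for a library that stands apart.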

Other observations

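Most doubled regions stood alone: with neighbours joined at 50 kb or less, 1548 had none, 205 runs held 2, 38 held 3, 12 held 4 and 4 held 5. The 4 runs of 5, chosen after their values were seen, were at chr17:36062783-36153881, at chr19:5493710-5623254, at chr6:67062548-67116786 and at chr5:124562317-124680337. Their median batch 1 ratios were 3.004, 2.39, 2.36 and 2.27. In the chromosome 6 run all 5 shared regions of the stretch were doubled, within 54.2 kb. In the run on chromosome 17 the doubled regions were 5 of 9 shared regions, on chromosome 19 they were 5 of 10 and on chromosome 5 they were 5 of 7. Of the 12 runs of 4, the one with the highest median ratio, 3.54, was at chr4:89372031-89414394 and held 4 of 4 shared regions, with 1 of its 4 called in batch 2, in the TGFβ list only.

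Both doubled regions on X were well above the threshold. The first, chrX:8104518-8105822, had folds of 5.31 and 5.82 with vehicle and 14.996 and 15.5 with TGFβ, and no batch 2 call. The other, chrX:168577486-168578934, had 4.88 and 5.65 with vehicle, 16.5 and 18.8 with TGFβ, and 2.94 with TGFβ alone in batch 2. Of the doubled regions called in the vehicle list of batch 2 only, the strongest lay at chr17:43252940-43254752, with vehicle folds of 6.95, 8.58 and 3.28 in replicates 1, 2 and 3 and TGFβ folds of 15.2 and 18.6 in batch 1. These 3 regions were chosen after their values were seen.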
